A study of Mus musculus with 12 samples.

Results

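Small-intestinal organoids cultured for 4 days with regulatory T (Treg) cells and a neutralizing antibody to interferon gamma (IFNγ) were compared with organoids cultured alone, at the level of single epithelial cells. The group with antibody is called Treg_aIFNg and the group cultured alone Ctrl. A cell belonged to the comparison if it carried the hashtag of either group as its only hashtag, in 1 of 5 droplet libraries, with 10000 to 90000 unique molecular identifiers (UMIs), 3000 to 10000 detected genes and at most 8.5% mitochondrial UMIs. Of the 11911 cells of all 6 groups within these limits, 3894 belonged to the comparison, 1774 from Ctrl and 2120 from Treg_aIFNg. All organoids came from wild-type BALB/c crypts in medium with EGF, Noggin and R-spondin-1. The Treg cells were allogeneic CD4+CD25high FoxP3-GFP+ cells sorted from reporter mice, added at 100000 per well with IL-2 at 30 U/ml and 2 µl of CD3/CD28 beads, in tilted plates that kept them away from the organoids. The antibody was added at 10 µg/ml when the co-culture began. The sources used here do not say whether Ctrl wells received IL-2, beads or an antibody, so the comparison holds Treg cells, their stimulation and the antibody together and these cannot be told apart. The other groups were organoids with Treg cells alone (Treg), with Treg cells and an antibody to the IL-10 receptor (Treg_aIL10R), with Treg cells and both antibodies (Treg_aIFNg_aIL10R), and with recombinant IFNγ at 0.25 ng/ml plus IL-10 at 10 ng/ml and no Treg cells (IFNg_IL10). Live EpCAM+ cells of the 6 groups were hashtagged and pooled in every library, and the 3 experiments gave libraries of replicate 1 (2 libraries), replicate 2 (2 libraries) and replicate 3 (1 library used). A second library of replicate 3, which the authors excluded for low UMI counts and unclear hashtags, was not analysed here.

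Group membership rests on hashtag oligos read beside the mRNA, and the pair used here is shown because every cell was placed by them. The barcodes of these 2 oligos differ at 12 of 15 bases.
Ctrl hashtag: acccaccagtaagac
Treg_aIFNg hashtag: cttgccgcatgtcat

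IFNγ binds a receptor of IFNGR1 and IFNGR2 chains, which activates the kinases JAK1 and JAK2. The signal reaches genes with GAS elements such as Irf1, and the response includes antigen processing, MHC class I and II, and the guanylate-binding and immunity-related GTPases. In the intestinal crypt IFNγ is known both to injure stem and Paneth cells and to induce epithelial MHC, while IL-10 signals through its own receptor chains and STAT3.

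Depth was alike in both groups. The median cell held 44595 UMIs in Ctrl and 44571.5 in Treg_aIFNg, and the summed cells of a replicate held 15614295 to 36769523 UMIs in Ctrl (345 to 833 cells) and 17228037 to 43938384 in Treg_aIFNg (385 to 999 cells). The limits kept 37.2% to 42.9% of the single-hashtag cells of these groups in the libraries of replicates 1 and 3. In those of replicate 2 they kept 66.7% to 72.1%. Most cells lost had fewer than 10000 UMIs. Library pairs shared 9 to 24 cell barcodes, at most 0.309% of a library. Epithelial identity was clear in both groups: Epcam lay at 1728 to 1840 UMIs per 1000000 UMIs (CPM) in Ctrl and 1652 to 1853 CPM in Treg_aIFNg, and Krt8 at 1367 to 1423 and 1369 to 1399 CPM. The CPM of these markers, of list sums and of limits for a count of 0 use raw totals. Those of single genes in later paragraphs use totals scaled between samples. The 21 T-cell markers summed to 5.01 ± 0.60 CPM in Ctrl and 5.19 ± 0.31 CPM in Treg_aIFNg (mean ± SD, n = 3), of which Ctla4 and Tnfrsf18 made up most. Of the defining T-cell genes, Cd3d, Ptprc and Trbc2 had 0 UMIs in both groups, Cd3e had 0 and 2, and Foxp3 had 2 and 1. Doublets were removed only where a barcode carried more than 1 hashtag.

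No gene passed the test between Treg_aIFNg and Ctrl in the fit of all 6 groups, with UMIs summed over all cells of a group and replicate. The edgeR quasi-likelihood test, with all 6 groups in the fit and the replicate as a block, called 0 of 15002 genes (0.00%), and DESeq2 also called 0. An unadjusted p under 0.05 was reached by 269 genes (1.79%) in edgeR and 146 in DESeq2. The share in edgeR is smaller than such a threshold takes when nothing differs, so this fit can miss changes in this contrast. The median log2 fold change over all tested genes was -0.0058. In these sums, fewer cells of a type and less RNA per cell cannot be told apart. The precision depended on abundance: the median 95% confidence interval of a log2 fold change reached 0.10 to either side for genes above 100 CPM, 0.15 from 10 to 100 CPM, 0.34 from 1 to 10 CPM and 0.94 below 1 CPM. A fit on the 2 groups alone, in which the other groups do not enter the estimate of the spread, called 9 of 13918 genes (0.0647%, against 752 or 5.40% at an unadjusted p under 0.05), and these are described after the interferon genes.

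The components that sense IFNγ were present at like levels in both groups. Ifngr1, the ligand-binding chain, measured 101, 89.4 and 106 CPM in the 3 Ctrl replicates and 104, 96.1 and 107 CPM in Treg_aIFNg (log2 fold change 0.05, SE 0.06, adjusted p = 1). Ifngr2, the signalling chain, measured 72.04, 66.0 and 78.1 CPM in Ctrl and 71.4, 66.1 and 75.0 CPM in Treg_aIFNg. The kinases Jak1 (37.2 to 46.3 CPM in Treg_aIFNg, 39.4 to 48.5 CPM in Ctrl) and Jak2 (20.3 to 27.5 and 19.3 to 27.1 CPM) overlapped between the groups. The epithelium of both groups therefore carried mRNA for both receptor chains and both kinases. Ifng mRNA itself had 0 UMIs in either group, which allows up to 0.0367 CPM over the Ctrl cells and 0.0311 CPM over the Treg_aIFNg cells, a limit that covers counting error only.

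Irf1 and Irf9, 2 transcription factors of the response, lay near the control level with the antibody and above it with Treg cells alone. They were the only genes called among the 20 tested of the JAK-STAT-IRF list, both in Treg against Ctrl (0.153% of all tested genes were called higher there) and in Treg_aIFNg against Treg (0.193% lower). Irf1, an early gene of the response that drives later interferon genes, measured 9.05, 6.73 and 8.04 CPM in Ctrl, 8.18, 6.13 and 6.75 CPM in Treg_aIFNg, and 38.2, 65.5 and 42.5 CPM with Treg cells alone. Irf1 was lower in Treg_aIFNg than in Ctrl within each replicate. The Treg_aIFNg and Ctrl replicates overlapped, and every Treg replicate was higher than all of them. Against Ctrl the log2 fold change of Irf1 was -0.17 (SE 0.31, 95% interval -0.82 to 0.49, adjusted p = 1), and against Treg it was -2.80 (SE 0.28, adjusted p = 0.00100). In the fit on the 2 groups alone the 95% interval of Irf1 against Ctrl was -0.35 to 0.02. Irf9, the DNA-binding subunit of an interferon-activated complex, measured 4.35, 3.04 and 4.19 CPM in Ctrl, 3.895, 3.48 and 3.96 CPM in Treg_aIFNg and 7.94, 7.80 and 8.60 CPM in Treg. Its log2 difference was -0.02 (SE 0.17) from Ctrl and -1.11 (SE 0.15, adjusted p = 0.00548) from Treg. Irf8, another interferon-regulated factor, lay at 35.0 to 43.8 CPM in Treg_aIFNg, 39.3 to 41.9 CPM in Ctrl and 54.0 to 95.3 CPM in Treg, and its difference from Treg did not pass the test (adjusted p = 0.377). Stat2 overlapped between all 3 groups, at 5.08 to 7.14 CPM in Treg_aIFNg, 4.67 to 7.05 CPM in Ctrl and 5.82 to 9.14 CPM in Treg. Socs1, the feedback inhibitor of JAK kinases, was scarce at 0.558 to 0.935 CPM in Treg_aIFNg, 0.667 to 1.18 CPM in Ctrl and 0.775 to 1.86 CPM in Treg, and its difference from Ctrl had an SE of 0.61 on the log2 scale.

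**Figure D1:**
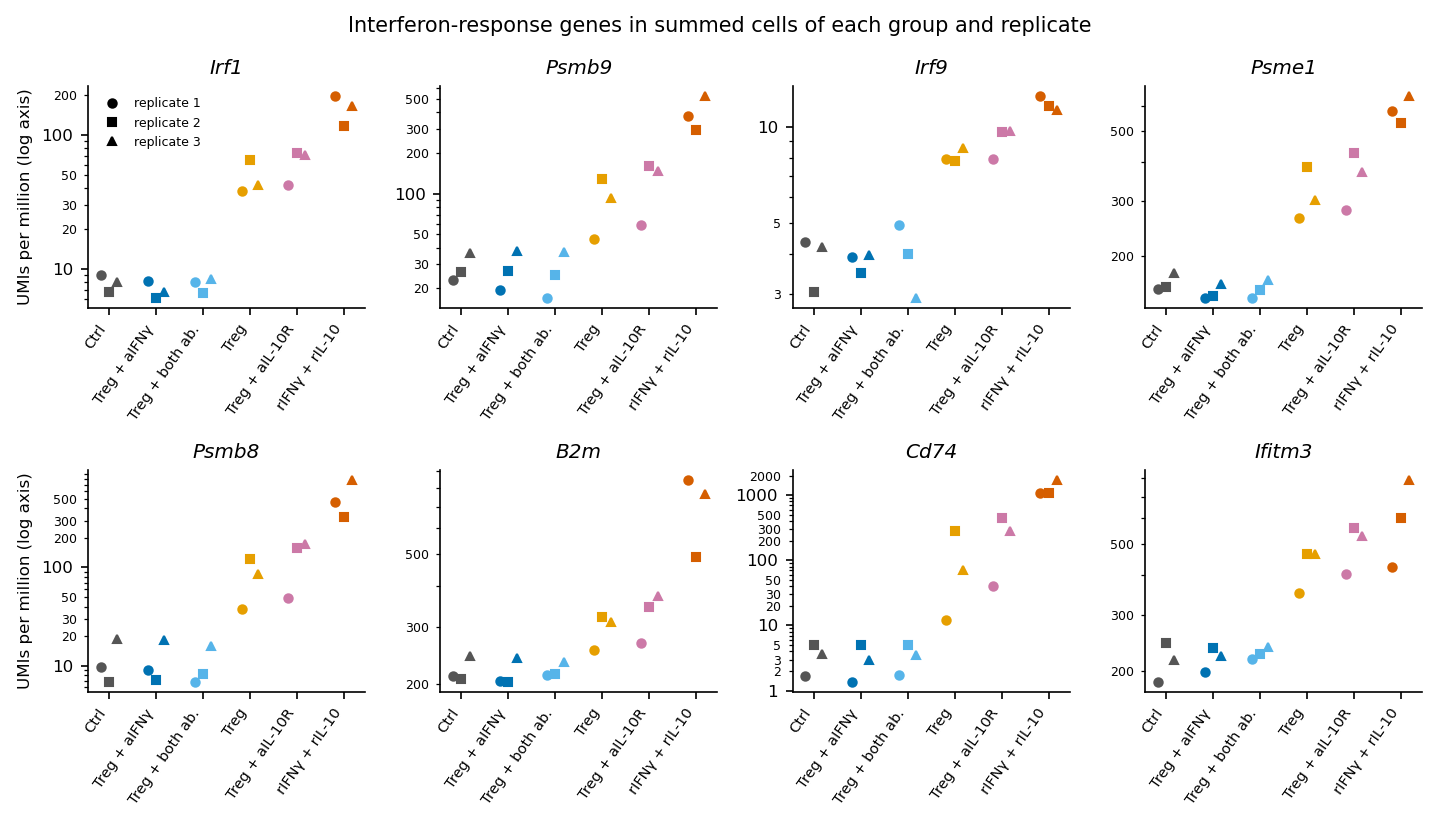
CPM (y axis, log scale, a separate range for each gene) of 8 interferon-response genes in the summed cells of each group (x axis), with 1 point per replicate. Treg_aIFNg (Treg + aIFNγ) lies with Ctrl and the group with both antibodies (ab.), for example at 6.13 to 8.18 CPM for Irf1, and the 3 groups without an antibody to IFNγ lie higher, for example at 38.2 to 65.5 CPM for Irf1 with Treg cells alone.

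Genes of antigen processing for MHC class I followed the same order of groups. Psmb8, an immunoproteasome subunit, measured 9.75, 6.87 and 18.8 CPM in Ctrl and 8.96, 7.17 and 18.0 CPM in Treg_aIFNg, with a mean of 82.4 ± 42.9 CPM (SD, n = 3) and no value under 37.5 CPM in Treg. Each Treg_aIFNg replicate was thus close to the Ctrl replicate of the same experiment, and the log2 difference was -0.05 (SE 0.45) from Ctrl and -2.91 (SE 0.42, adjusted p = 0.00724) from Treg. In the fit on the 2 groups alone, the difference of Psmb8 from Ctrl was -0.04 (SE 0.07, 95% interval -0.20 to 0.11). The immunoproteasome subunits Psmb9 and Psmb10 lay at 19.4 to 37.5 and 34.1 to 57.5 CPM in Treg_aIFNg, inside or overlapping the Ctrl ranges of 22.9 to 36.6 and 39.6 to 59.3 CPM. Psme1, which encodes a subunit of the proteasome activator PA28, measured 158, 159 and 177 CPM in Ctrl, 148, 149 and 164 CPM in Treg_aIFNg and 264, 383 and 303 CPM in Treg. Its 95% interval against Ctrl was -0.35 to 0.14 on the log2 scale, which leaves room for a decrease. The difference from Treg was -1.04 (SE 0.12, adjusted p = 0.00144 in edgeR). Psme2, the partner subunit, differed by -0.05 (SE 0.11) from Ctrl and -0.86 (SE 0.11, adjusted p = 0.00495) from Treg. B2m, the invariant chain of MHC class I, measured 213, 208 and 245 CPM in Ctrl, 205, 204 and 241 CPM in Treg_aIFNg and 254, 322 and 310 CPM in Treg. Treg_aIFNg stayed below every Treg replicate for B2m, but the difference of -0.45 on the log2 scale (SE 0.15) did not pass the test (adjusted p = 0.415).

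MHC class II genes showed the widest gap to co-culture without antibody. Cd74, the class II invariant chain, measured 1.65, 5.09 and 3.64 CPM in Ctrl, 1.38, 5.07 and 2.97 CPM in Treg_aIFNg and 11.9, 283 and 69.8 CPM in Treg. The Treg values varied widely between replicates, while those of Ctrl and Treg_aIFNg moved together from replicate to replicate. The log2 difference of Cd74 was -0.13 (SE 0.91) from Ctrl and -4.86 (SE 0.73, adjusted p = 0.00952) from Treg, a level 29.1-fold lower. Ciita, the class II transactivator, measured 0.191, 0.192 and 0.275 CPM in Ctrl, 0.0779, 0.226 and 0 CPM in Treg_aIFNg, and 1.25, 7.59 and 2.38 CPM in Treg. H2-Ab1, a class II chain, lay at 0.493 to 1.65 CPM in Treg_aIFNg and 0.699 to 1.86 CPM in Ctrl against 3.07 to 58.5 CPM in Treg, and the difference of -4.11 from Treg (SE 0.86) missed the threshold (adjusted p = 0.0927). Among the interferon GTPases, Igtp lay at 0.498 to 0.857 CPM in Treg_aIFNg and 0.356 to 0.826 CPM in Ctrl, against 1.83 to 13.1 CPM in Treg. The difference of Igtp from Treg did not pass the edgeR test (adjusted p = 0.467), and 0 of the 16 tested GTPases were called in that contrast. From Ctrl, Igtp differed by 0.25 (SE 1.71) in the fit of 6 groups and 0.28 (SE 0.30) in the fit on the 2 groups alone. Gbp2 was barely detected, with 0 UMIs in Ctrl, 3 in Treg_aIFNg and 11 in Treg.

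The 5 interferon lists together held 134 genes, of which 118 were tested: 20 of the JAK-STAT-IRF pathway, 23 of MHC class I, 11 of MHC class II, 16 GTPases and 48 other effectors. None of the 118 passed the edgeR test against Ctrl, where the background was 0.00%, and DESeq2 called no gene either. An unadjusted p under 0.05 in edgeR was reached by 1 JAK-STAT-IRF gene and 1 effector, beside 1.79% of all tested genes. The median log2 fold change over the 118 genes was -0.03 against Ctrl, beside -0.0058 over all tested genes, and 97 of the 118 lay within 0.5 on the log2 scale of Ctrl. Against Treg the median was -0.66, beside -0.0012 over all tested genes, and 100 of the 118 were lower with the antibody. By list, the medians against Ctrl were -0.01 for JAK-STAT-IRF genes, -0.05 for MHC class I, -0.14 for MHC class II, 0.03 for GTPases and -0.03 for effectors. Summed over the 16 tested GTPases and the 4 that were not, the level was 12.2, 9.85 and 9.67 CPM in Ctrl, 12.3, 9.49 and 10.7 CPM in Treg_aIFNg and 21.6, 53.4 and 19.3 CPM in Treg. The Treg_aIFNg replicates lay wholly above those of Ctrl for Tyk2, Oasl2 and Herc6 and wholly below for Cmpk2, Ubd and Epsti1. Over all tested genes such separation occurred upwards in 246 (1.64%) and downwards in 192 (1.28%), or 438 (2.92%) in all.

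The question of what the antibody changed in co-culture was asked by the contrast with Treg cells alone. Against Treg, 29 of 15002 genes were lower in Treg_aIFNg at an adjusted p under 0.05 in edgeR (0.193%), each in 3 of 3 replicates, and 0 were higher (0.00%), with 1225 genes (8.17%) at an unadjusted p under 0.05 in either direction. DESeq2 called 76 lower and 10 higher. Members of the interferon lists made up 18 of the 29. They were Irf1, Irf9, Psmb8, Psmb9, Psmb10, Psme1, Psme2, Tapbp, Tapbpl and Erap1 (peptide loading and trimming), Nlrc5 (the class I transactivator), Ciita, Cd74, Ctss (a protease that trims the invariant chain), Casp1, Lgals9, Ifitm3 and Epsti1. The other 11 were Gsdmd (the pore-forming target of inflammatory caspases), Casp12, Nmi (an interferon-induced partner of STATs), Trim26, Shfl (an antiviral inhibitor of ribosomal frameshifting), Unc93b1 (which carries Toll-like receptors to endosomes), Pnpla2 (a triglyceride lipase), Adh6a, Ldb3, Tnfaip8l3 and Gm12216. The differences from Treg ran from -4.86 to -0.29 on the log2 scale, and the differences of the same genes from Ctrl ran from -0.68 to 0.37 with a median of -0.07. Epsti1 was the only one of the 29 whose Treg_aIFNg replicates did not overlap those of Ctrl (35.0, 36.7 and 37.0 against 38.9, 38.1 and 37.9 CPM). Ifitm3, an antiviral membrane protein with close paralogs, measured 186, 245 and 217 CPM in Ctrl, 199, 236 and 224 CPM in Treg_aIFNg and 350, 464 and 464 CPM in Treg. For Lgals9, which encodes galectin-9, the values were 250, 212 and 217 CPM, 245, 206 and 216 CPM, and 328, 339 and 282 CPM. Both genes were thus abundant in Ctrl and remained so in Treg_aIFNg. The number of calls depended on the replicates: it was 67 without replicate 1, 7 without replicate 2 and 0 without replicate 3, and 7 when the replicate was not a block.

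**Figure D2:**
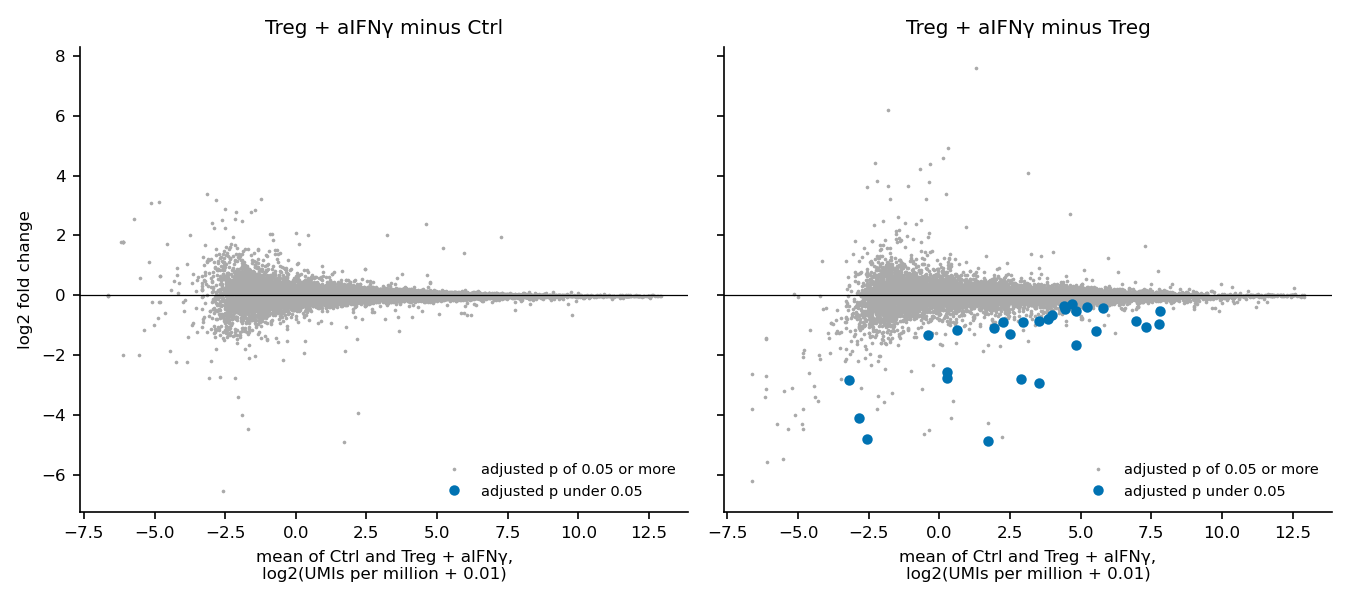
Log2 fold change of Treg_aIFNg (y axis) against Ctrl (left) and against Treg (right) for the 15002 tested genes, by their mean level in Ctrl and Treg_aIFNg (x axis, log2 of CPM plus 0.01). No gene passes an adjusted p of 0.05 on the left, and the 29 that pass on the right (filled circles) are all lower, from -4.86 to -0.29.

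Promoters of 4 of these 29 genes are shown because they hold sequence elements known from interferon-regulated genes. The windows span 250 bases before to 50 after the start of the gene in RefSeq (GRCm38.p6), 5′ to 3′ on the strand of the gene. Capitals mark each match to the GAS letters TTCNNNGAA or the ISRE letters GAAANNGAAA, searched on both strands, with overlapping matches merged. Irf1 lies at chr11:53769764-53770063 (plus strand, 1 GAS match), Psmb8 at chr17:34197945-34198244 (plus strand, 1 GAS match), Psme1 at chr14:55578244-55578543 (plus strand, 1 ISRE match) and Ifitm3 at chr7:141010695-141010994 (minus strand, 1 GAS and 2 ISRE matches).
Irf1: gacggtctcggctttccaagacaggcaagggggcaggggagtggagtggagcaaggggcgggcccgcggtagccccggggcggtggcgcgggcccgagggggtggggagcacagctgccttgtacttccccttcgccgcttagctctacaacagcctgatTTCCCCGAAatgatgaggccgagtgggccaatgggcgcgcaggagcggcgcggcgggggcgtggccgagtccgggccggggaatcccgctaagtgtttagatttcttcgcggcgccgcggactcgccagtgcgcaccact
Psmb8: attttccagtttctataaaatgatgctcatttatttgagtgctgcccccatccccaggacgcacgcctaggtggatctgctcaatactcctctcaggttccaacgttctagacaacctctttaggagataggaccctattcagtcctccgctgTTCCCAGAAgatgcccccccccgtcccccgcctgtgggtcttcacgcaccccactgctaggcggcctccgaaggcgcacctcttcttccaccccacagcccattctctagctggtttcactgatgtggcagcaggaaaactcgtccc
Psme1: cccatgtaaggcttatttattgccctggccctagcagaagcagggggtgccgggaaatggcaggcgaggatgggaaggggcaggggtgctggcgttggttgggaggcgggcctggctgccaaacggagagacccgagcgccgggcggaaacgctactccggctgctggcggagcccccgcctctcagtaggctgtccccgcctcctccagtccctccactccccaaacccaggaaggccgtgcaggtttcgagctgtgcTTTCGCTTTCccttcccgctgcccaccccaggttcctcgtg
Ifitm3: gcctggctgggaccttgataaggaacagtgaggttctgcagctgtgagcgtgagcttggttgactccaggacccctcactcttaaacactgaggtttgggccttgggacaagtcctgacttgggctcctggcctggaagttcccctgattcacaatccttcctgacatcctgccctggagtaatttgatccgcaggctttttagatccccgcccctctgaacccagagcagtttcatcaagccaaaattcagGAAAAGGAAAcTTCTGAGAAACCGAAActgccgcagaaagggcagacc
Of the 29 genes, 22 had a promoter that was searched, and 6 of these (27.3%) held a GAS match, 8 (36.4%) an ISRE match and 11 (50.0%) either. Among all 27025 promoters searched the shares were 8.47%, 3.49% and 11.4%, and among the 11203 promoters of tested genes they were 6.98%, 3.05% and 9.61%. A match gives the letters only and is no evidence of binding. For Ciita, Nlrc5, Cd74, Tapbpl, Gsdmd, Unc93b1 and Shfl no promoter was searched. The promoters of 1 chromosome were left out before the search.

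An interferon score counted the UMIs of the GTPase, effector and MHC lists (110 genes) after every cell was thinned to 10000 UMIs, and cells were counted above the 99th percentile of the control cells of their replicate. Above that limit lay 6 of 596, 9 of 833 and 2 of 345 Ctrl cells (1.01%, 1.08% and 0.580%) and 7 of 736, 7 of 999 and 11 of 385 Treg_aIFNg cells (0.951%, 0.701% and 2.86%). The mean share was 1.503% ± 1.18 (SD, n = 3) in Treg_aIFNg and 0.889% ± 0.270 in Ctrl. The limit itself sets the Ctrl share near 1%, so the SD of Ctrl does not measure a spread between experiments. The mean difference of 0.614 percentage points was not larger than the spread (p = 1 by flipping the signs of the 3 pairs in a two-sided exact permutation test, which cannot go below 0.25), it came from replicate 3, and without that replicate it was -0.218. Of the 11 cells above the limit in replicate 3, 4 were endocrine-like, a class of 12 cells there. With Treg cells alone the shares were 9.22%, 34.3% and 19.0%, with both antibodies 0.804%, 1.04% and 0.976%, and with recombinant cytokines 98.1%, 89.2% and 99.7%. The median score was 34.0 to 35.0 in Treg_aIFNg, 33.0 to 36.0 in Ctrl and 42.0 to 51.0 in Treg, and before thinning the lists took a median of 0.331% to 0.357% of the UMIs of a Treg_aIFNg cell and 0.334% to 0.353% of a Ctrl cell. The mean score was slightly lower than in Ctrl in each replicate, at 35.0, 33.9 and 36.2 in Treg_aIFNg against 35.6, 34.4 and 36.7. This difference in means was not tested. Within cell classes (defined with their markers further on), the mean score of Treg_aIFNg minus that of Ctrl ran from -0.40 to 1.83 UMIs over the replicates in stem-like cells and from -0.53 to -0.35 in transit-amplifying-like cells, where Treg minus Ctrl ran from 10.6 to 31.6 and from 7.35 to 19.0. In enterocyte-like cells the score was lower than in Ctrl in all 3 replicates, with differences of -1.88, -2.82 and -2.34 UMIs, where Treg minus Ctrl ran from 4.35 to 19.4. The differences from Ctrl ran from -2.77 to 0.19 in the Sprr2f/Areg cluster, -3.19 to 1.27 in goblet/Paneth-like cells and -4.47 to 0.38 in unnamed cells. In the few endocrine-like cells (27 in Ctrl, 33 in Treg_aIFNg) the differences were 1.23 to 6.67 UMIs, and those of Treg minus Ctrl were -1.90 to 6.31.

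**Figure D3:**
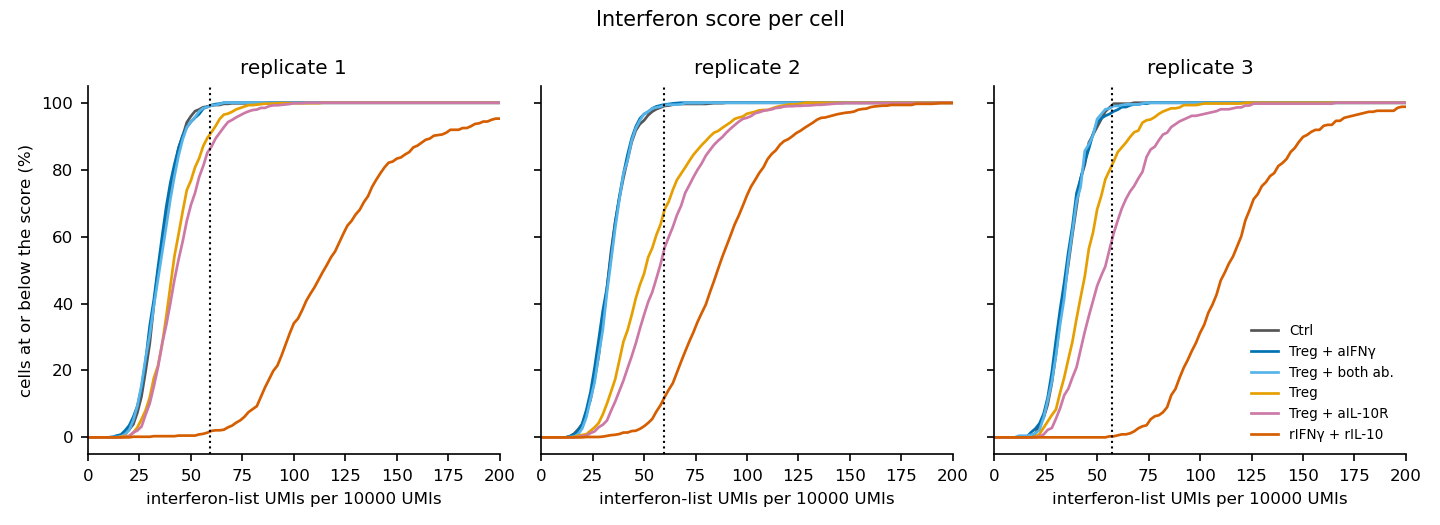
Percentage of cells (y axis) at or below each interferon score (x axis, UMIs of the interferon lists per 10000 UMIs, shown up to 200) in the 6 groups, 1 panel per replicate, with the 99th percentile of Ctrl cells as a dotted line. The Treg_aIFNg curve lies near the Ctrl curve, with 29.1% to 37.9% of cells at or below a score of 30 against 24.9% to 34.3% in Ctrl. It passes the dotted line with 0.701% to 2.86% of cells to its right, against 9.22% to 34.3% for Treg.

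In the Treg_aIFNg group IL-10 signalling was left unblocked, so readouts of IL-10 were compared next. Il10ra, the ligand-binding chain of the IL-10 receptor, had 0 UMIs among 81776974 in Ctrl and 0 among 96528007 in Treg_aIFNg, which allows at most 0.0367 and 0.0311 CPM. Il10rb, the chain shared with other receptors of the family, measured 21.7, 24.4 and 29.9 CPM in Ctrl and 22.2, 25.9 and 27.2 CPM in Treg_aIFNg (log2 fold change 0.00072, SE 0.07, a value whose sign changes with the scaling factors and with the replicate block). Only the shared chain was therefore detected in these cells. Stat3 measured 18.9, 15.8 and 15.2 CPM in Ctrl and 19.2, 15.2 and 14.8 CPM in Treg_aIFNg, and Socs3, a feedback inhibitor induced by STAT3, 2.83, 2.49 and 2.20 CPM and 1.97, 2.29 and 2.23 CPM (log2 fold change -0.23, SE 0.17, adjusted p = 1). Reg3b, an antimicrobial lectin, measured 13.6, 1.53 and 15.1 CPM in Ctrl and 13.8, 2.69 and 25.5 CPM in Treg_aIFNg (0.57, SE 0.47), and Reg3g 46.3, 27.3 and 57.7 CPM and 62.1, 17.2 and 35.4 CPM (-0.32, SE 0.24). Replicates of the groups overlapped for all of these, and both lectins varied more between experiments than between groups. The 20 tested STAT3 target genes had a median log2 fold change of -0.0025, with 0 called by edgeR and 2 at an unadjusted p under 0.05, 1 of them Cebpd (0.21, SE 0.05, adjusted p = 1). Over all tested genes 1.79% reached that unadjusted p in edgeR. Against the group with both antibodies, in which the IL-10 receptor was blocked as well, edgeR called 0 genes lower and 0 higher of 15002 (0.00%), DESeq2 called 0, and 322 genes (2.15%) had an unadjusted p under 0.05 in edgeR. The median log2 difference of the interferon lists in that contrast was -0.02 for JAK-STAT-IRF genes and effectors, -0.0037 for MHC class I, -0.03 for MHC class II and 0.18 for GTPases.

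No gene of crypt identity or growth passed the test against Ctrl. Lgr5, the receptor that marks crypt-base stem cells, measured 54.6, 69.4 and 39.4 CPM in Ctrl and 60.4, 66.2 and 39.2 CPM in Treg_aIFNg (log2 fold change 0.02, SE 0.20). Olfm4, a secreted stem cell marker, measured 870, 998 and 1044 CPM in Ctrl and 1046, 949 and 1117 CPM in Treg_aIFNg (0.09, SE 0.21), and Myc 70.8, 78.9 and 70.6 CPM and 68.4, 76.1 and 67.3 CPM (-0.06, SE 0.10). Mki67, a proliferation marker, measured 228, 165 and 151 CPM and 239, 169 and 156 CPM (0.05, SE 0.10). The replicates of the groups overlapped for all 4 genes. The lists of Myc targets (36 genes tested, median log2 fold change -0.02), mTORC1 and ATF4 targets (30 genes, 0.02), S-phase genes (42, 0.05), G2/M genes (52, 0.02) and stem markers (20, 0.02) had no gene called. The summed S-phase genes were nonetheless higher in 3 of 3 replicates with no overlap, at 2129, 2088 and 2104 CPM in Ctrl and 2247, 2217 and 2140 CPM in Treg_aIFNg. Of the 42 single genes, 1 lay wholly above Ctrl, beside 1.64% of all tested genes, and 1 had an unadjusted p under 0.05 in edgeR. List sums were not tested. The summed G2/M genes were also higher within each replicate, at 8008, 7635 and 6885 against 8243, 7708 and 7233 CPM, with overlap between the groups. Of the 29 lists, the medians farthest from 0 were those of Paneth cell markers (-0.44, 17 genes), T-cell markers (0.31, 5 genes), myeloid and stromal markers (0.28, 4 genes) and endocrine markers (0.26, 22 genes), again with no gene called. The Paneth markers summed to 1098, 1438 and 2268 CPM in Ctrl and 573, 1151 and 1567 CPM in Treg_aIFNg, lower within each replicate but overlapping between the groups. Endocrine markers summed to 420, 432 and 249 CPM in Ctrl and 456, 689 and 704 CPM in Treg_aIFNg, with no overlap. Of the 22 endocrine genes, 4 lay wholly above Ctrl, and 1 had an unadjusted p under 0.05 in edgeR. The shares over all tested genes were 1.64% and 1.79%. Both lists are carried by few cells, as the cell classes show.

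**Figure D4:**
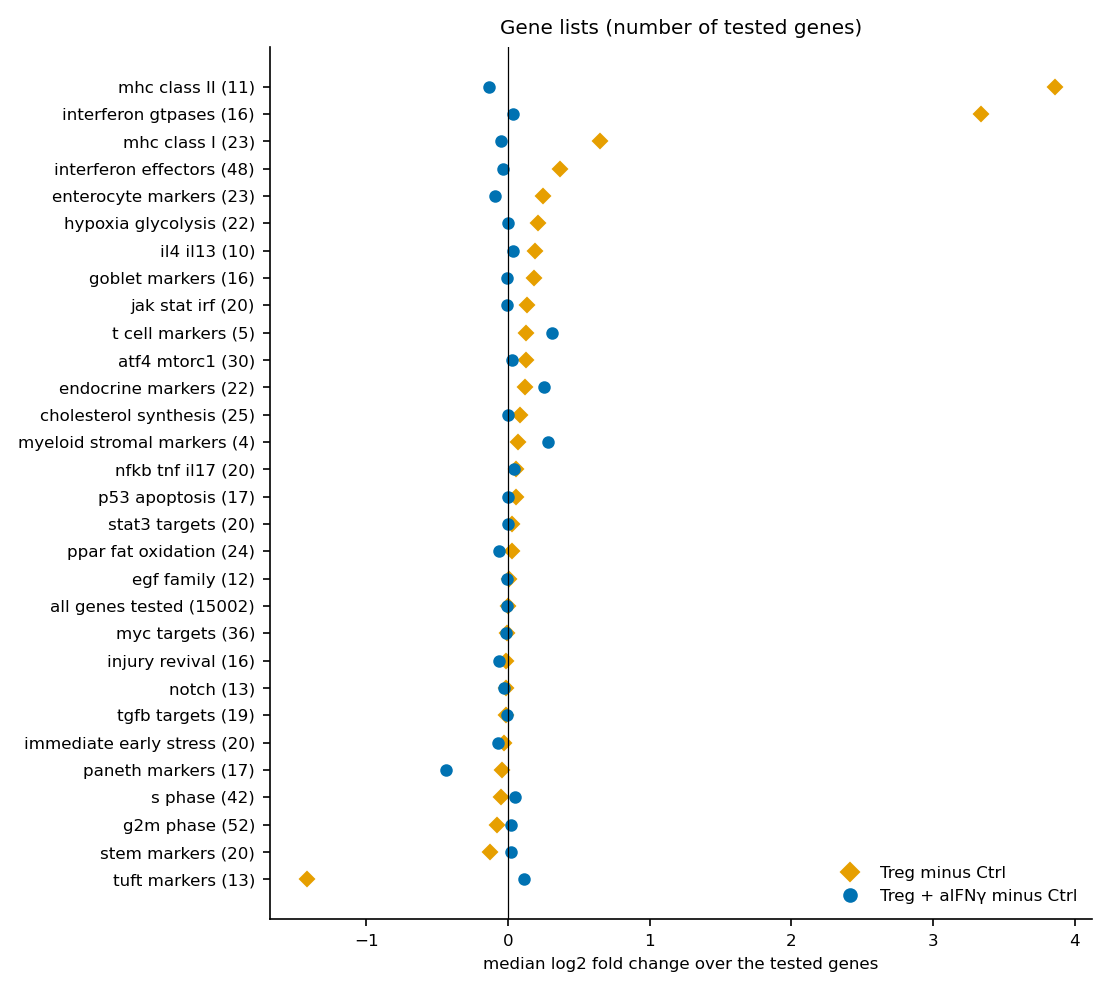
Median log2 fold change (x axis) over the tested members of each of the 29 gene lists and of all tested genes (y axis, number of genes in parentheses), for Treg_aIFNg minus Ctrl (circles) and Treg minus Ctrl (diamonds), which share the Ctrl samples. The circles lie from -0.44 to 0.31, while the diamonds of MHC class II and GTPases lie at 3.86 and 3.34.

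Since no gene passed the test against Ctrl, the 5 genes with the smallest p in each direction are given as values that did not pass (adjusted p = 1 for each). Higher in Treg_aIFNg were Cebpd, a transcription factor of the acute-phase response (10.4, 11.003 and 14.2 CPM in Ctrl, 12.2, 12.3 and 16.7 CPM in Treg_aIFNg), and 4 genes below 1.1 CPM in every replicate, namely Cntnap5c, Gm10134, Gnmt (a glycine methyltransferase) and Morn3. Lower were Gm3776, a glutathione S-transferase-like gene (46.8, 70.1 and 105 against 22.9, 58.5 and 71.9 CPM), Slc35d1, a nucleotide-sugar transporter (23.9, 20.2 and 19.4 against 22.4, 17.9 and 15.6 CPM), Snx11, a sorting nexin (5.43, 6.46 and 6.74 against 4.60, 4.91 and 5.58 CPM), 4833445I07Rik and the chemokine Ccl5. Ccl5 had 34 UMIs in Ctrl, 30 of them in 1 cell, and 0 in Treg_aIFNg. The differences of Cebpd, Gm3776, Slc35d1 and Snx11 had the same sign in 3 of 3 replicates, and in all 4 the groups overlapped.

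The fit on Ctrl and Treg_aIFNg alone called 8 genes lower and 1 higher (adjusted p under 0.05 in edgeR), several of them genes of enterocytes or of rare secretory cells. Gstm1, a glutathione S-transferase, measured 285, 301.2 and 429 CPM in Ctrl and 225, 255 and 359 CPM in Treg_aIFNg, Ces2a, a carboxylesterase, 96.9, 72.1 and 104 and 81.8, 58.3 and 80.4 CPM, Mgst3, a microsomal glutathione transferase, 553, 608 and 848 and 517, 553 and 753 CPM, and Fabp2, the intestinal fatty acid-binding protein, 438, 458 and 740 and 398, 411 and 678 CPM. All 4 were lower within each replicate and overlapped between the groups, with log2 fold changes of -0.28 (SE 0.11), -0.31 (SE 0.10), -0.14 (SE 0.06) and -0.14 (SE 0.10) in the fit of 6 groups. Of the others, AY761184 and Sst had most of their Ctrl UMIs in very few cells. AY761184, an alpha-defensin-related gene, measured 5.84, 11.7 and 8.45 CPM in Ctrl and 0.649, 0.611 and 0.496 CPM in Treg_aIFNg, and 6 Ctrl cells with 20 UMIs or more held 705 of the 733 UMIs, where no Treg_aIFNg cell reached 20. Such cells numbered 4 in Treg, 6 with both antibodies, 9 with anti-IL-10R and 31 with recombinant cytokines. The somatostatin gene Sst had 658 UMIs in Ctrl, 619 of them in 1 cell, and 26 in Treg_aIFNg, and the alpha-defensins Defa34 (0.572, 7.55 and 11.7 against 0.260, 2.87 and 4.15 CPM) and Defa3 (8.48, 22.2 and 34.2 against 6.10, 12.7 and 21.0 CPM) belong to a family of near-identical genes among which reads may be split. Sct, the hormone secretin, was the gene called higher (23.1, 13.8 and 21.0 against 29.4, 24.3 and 38.3 CPM). In Treg_aIFNg 1 cell held 756 of the 2824 Sct UMIs, and in Ctrl the highest cell held 160 of 1538. Sct was detected in 146 of 1774 Ctrl, 195 of 2120 Treg_aIFNg and 233 of 2097 Treg cells, with 17, 21 and 23 cells at 20 UMIs or more. The values of Cck, another gut hormone, were 97.5, 46.6 and 67.8 CPM in Ctrl and 135, 258 and 322 CPM in Treg_aIFNg, from 7 and 15 such cells, and it did not pass in either fit.

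Cell classes were built from Ctrl cells alone, clustered without the genes of the interferon lists, and all cells were then assigned by their rank correlation with the class profiles over 302 marker genes, a step that returned 85.7% of Ctrl cells to the class of their own cluster. Of 12 clusters, 2 were named intestinal stem cell (ISC)-like, 4 transit-amplifying (TA)-like, and 1 each endocrine-like, goblet/Paneth-like and enterocyte-like. A further cluster led by Sprr2f and Areg carried intermediate levels of enterocyte progenitor markers, but none of these was among its 10 leading genes, so it keeps the names of its leading genes, and 2 more clusters stay unnamed. The names are approximate: Dclk1 and Rgs13, which mark tuft cells, stood among the 10 leading genes of 1 ISC-like cluster beside Olfm4 and Lgr5, and its mean score was higher for tuft markers (1.69) than for ISC markers (1.41). The other ISC-like cluster, with 187 of the 478 ISC-like Treg_aIFNg cells, had Olfm4 as the only ISC marker among its 10 leading genes, beside histone and DNA replication genes, and scored 1.52 for ISC and 1.21 for TA markers. In addition, 2 of the 4 TA-like clusters, led by mitotic genes, had a higher mean score for the ISC markers than for the TA markers (1.02 against 0.65 and 0.77 against 0.54). TA-like cells made up 49.0%, 47.1% and 41.4% of the cells in Ctrl and 47.1%, 50.3% and 48.6% in Treg_aIFNg. ISC-like cells made up 19.6%, 20.6% and 24.6% in Ctrl and 26.6%, 20.3% and 20.5% in Treg_aIFNg. These shares rose in some replicates and fell in others, with mean differences of 2.82 ± 4.496 and 0.851 ± 5.65 percentage points (SD, n = 3). Enterocyte-like cells made up 12.4%, 7.08% and 13.9% in Ctrl and 10.3%, 6.91% and 11.2% in Treg_aIFNg, lower in 3 of 3 replicates by 1.67 ± 1.33 percentage points on average. Unnamed cells were also lower in 3 of 3 replicates, with 8.05%, 11.9% and 6.67% in Ctrl and 5.98%, 8.71% and 6.49% in Treg_aIFNg. The Sprr2f/Areg cluster held 6.71% to 9.48% of Ctrl and 6.75% to 9.61% of Treg_aIFNg cells, goblet/Paneth-like cells 2.52% to 4.06% and 1.77% to 3.38%, and endocrine-like cells 1.32% to 1.74% and 1.09% to 3.12%. None of the 7 differences could pass with 3 pairs, for which the two-sided exact sign-flip permutation test gives p = 0.25 at the lowest, and adjusted over the 7 classes the lowest value was 0.875.

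**Figure D5:**
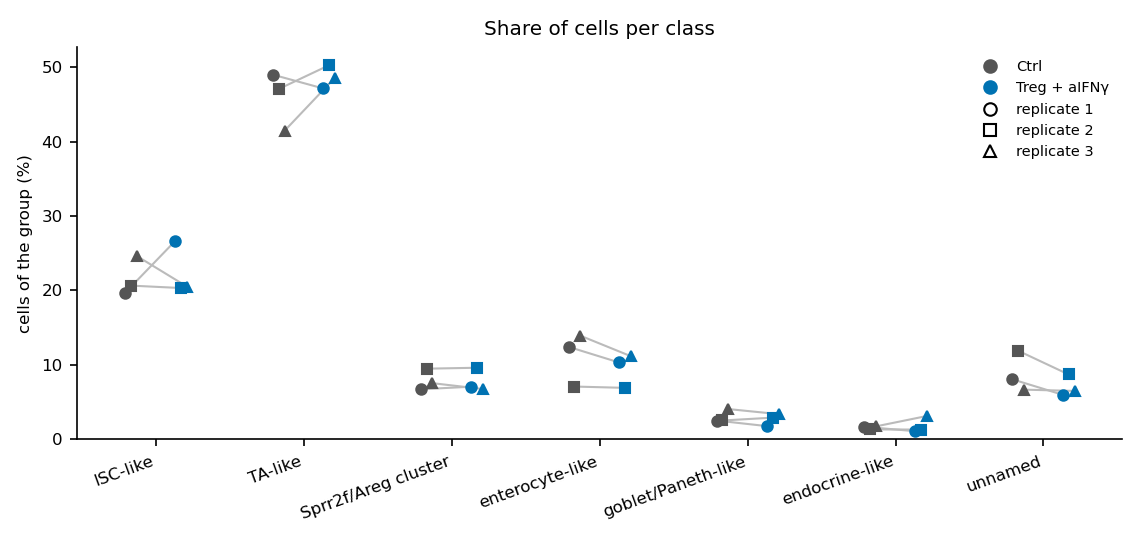
Share of the cells of a group (y axis, percent) in each cell class (x axis) for Ctrl and Treg_aIFNg, with 1 point per replicate and a line joining the 2 groups of a replicate. The enterocyte-like and unnamed shares fall in all 3 replicates, with differences of -2.74 to -0.176 and -3.18 to -0.173 percentage points, and the lines of the other classes run in both directions.

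Within classes, edgeR again called no gene at an adjusted p under 0.05 (0.00% in each). In ISC-like cells 11438 genes were tested, and 296 (2.59%) had an unadjusted p under 0.05, in TA-like cells 13088 and 265 (2.02%), in the Sprr2f/Areg cluster 9790 and 356 (3.64%), in enterocyte-like cells 10044 and 354 (3.52%) and in goblet/Paneth-like cells 8525 and 669 (7.85%). DESeq2 called 0 in the first 4 and 7 in goblet/Paneth-like cells, where it gave an adjusted p to 427 genes. Leaving out replicate 2 gave 2 calls in ISC-like cells, 1 in TA-like cells, 3 in the Sprr2f/Areg cluster and 10 in goblet/Paneth-like cells, which the full data did not give. The genes named next had the smallest p in their class and direction and did not pass.

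In ISC-like cells the lower genes included Egfr, the receptor of the growth factor in the medium (46.0, 40.8 and 37.2 CPM in Ctrl, 38.2, 30.3 and 29.6 CPM in Treg_aIFNg, log2 fold change -0.35, SE 0.10), the metal transporter Slc39a8 (51.5, 26.3 and 39.2 against 40.2, 21.6 and 26.3 CPM), Scfd2, Kcnma1 and Adam2. Each of Egfr and Slc39a8 was lower within all 3 replicates, and the groups overlapped in both. The higher genes were Herpud1, a component of degradation at the endoplasmic reticulum (41.4, 47.2 and 58.6 against 52.1, 60.6 and 72.7 CPM), Stx17 (12.5, 11.5 and 13.1 against 17.8, 17.3 and 14.6 CPM), Gm14636, and the hormone-granule genes Cck and Chgb, which were high in replicate 2 of Treg_aIFNg alone (34.4 and 15.9 CPM, with the other 5 values of each between 0.383 and 2.09 CPM). In TA-like cells S100a6, a calcium-binding protein (19.2, 14.0 and 22.6 against 31.1, 19.5 and 28.8 CPM, log2 fold change 0.53, SE 0.13), and Pou2f3, the tuft cell transcription factor (2.01, 2.57 and 3.80 against 4.68, 3.71 and 6.15 CPM), were higher within each replicate, with 4930550C14Rik, Rec114 and Dip2a. The lower genes were Chdh, a choline dehydrogenase (20.008, 14.1 and 16.4 against 16.98, 11.6 and 12.5 CPM), Nagpa, Trappc2, Syngr4 and Gm26620. The adjusted p was 1 for each of these genes in both classes.

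In the Sprr2f/Areg cluster, with 145 Ctrl and 174 Treg_aIFNg cells, Tff3 had the lowest adjusted p of any class (0.0715). Tff3, a trefoil peptide of goblet cells, measured 523, 96.0 and 130 CPM in Ctrl and 31.9, 32.4 and 19.7 CPM in Treg_aIFNg (log2 fold change -3.03, SE 0.53). Fcgbp, a mucus protein also made by goblet cells, fell on the same side at 134, 15.1 and 21.1 against 8.08, 11.4 and 7.65 CPM (-2.50, SE 0.60, adjusted p = 1), and the other lower genes were Adh4, Rnpep and 4933421O10Rik. The Ctrl values of both goblet genes were highest in replicate 1, where the cluster held 40 Ctrl cells, and the groups did not overlap for either. How many cells carried these UMIs was not tested. Whether a few goblet cells assigned to this cluster or a change within it gave these values was therefore not tested. Higher genes in this cluster were Dtl (10.6, 9.32 and 7.78 against 22.5, 21.3 and 21.9 CPM), Chaf1a (3.75, 8.60 and 10.0 against 16.2, 14.6 and 17.5 CPM) and Ncapg2 (3.12, 6.81 and 10.0 against 20.2, 16.1 and 17.5 CPM), which act in DNA replication, chromatin assembly and chromosome condensation, with Cep68 and Thap1. In enterocyte-like cells Fkbp5, a co-chaperone of steroid receptors (8.43, 2.09 and 4.86 against 10.5, 18.3 and 19.0 CPM, log2 fold change 1.52, SE 0.35), and the prolactin receptor Prlr (116, 89.8 and 81.3 against 138, 109 and 116 CPM) were higher within each replicate, as were Zkscan8, Cwc27 and Cttnbp2nl. Gm3776 (375, 927 and 831 against 216, 750 and 638 CPM), Mpi, a mannose isomerase (25.9, 27.7 and 24.3 against 16.0, 17.1 and 20.9 CPM), Tmtc3, Cox15 and Zfp771 were lower.

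Goblet/Paneth-like cells were few, 14 to 21 per Ctrl replicate and 13 to 29 per Treg_aIFNg replicate, and mixed both lineages. Here Tff3 was higher with Treg cells and antibody, at 12030, 12086 and 12196 CPM in Ctrl and 19996, 13282 and 19169 CPM in Treg_aIFNg (log2 fold change 0.51, SE 0.11, adjusted p = 0.245), the opposite side from the Sprr2f/Areg cluster. Casz1, a zinc-finger factor (60.5, 73.2 and 75.0 against 144, 103 and 106 CPM), Fam221a, Fbxl20 and Gm49708 were higher as well. Lower were Pdgfa, a growth factor that signals to mesenchyme (122, 90.8 and 61.4 against 21.2, 29.8 and 29.6 CPM), Cps1, carbamoyl-phosphate synthase (414, 240 and 259 against 93.4, 183 and 86.2 CPM), Hnrnpll, Tmem117 and Rragd.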

How the data were processed

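Single-cell 3′ libraries (10x Chromium v3.1 with hashtag oligos) were made from live EpCAM+ organoid cells. The deposited values are raw UMI counts per gene and per hashtag, which the authors made with Cell Ranger 7.0.0 on mm10, and they called hashtags with Seurat 4.0.5. Here hashtags were called again in each library with HTODemux (Seurat 5.3.0, centred log-ratio, positive quantile 0.99), and only single-hashtag cells within the limits given above were kept. The authors' doublet caller was not used here, so doublets within 1 hashtag remain.

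UMI counts were summed per group and replicate, and sums of the 6 groups were fitted together in edgeR 4.0.16 (R 4.3.3): TMM scaling, filterByExpr, quasi-likelihood test, group and replicate as terms, Benjamini-Hochberg adjusted p of 0.05 over all genes tested. The CPM of single genes use totals after this TMM scaling. Classes were built in Python 3.11.15 with Leiden clustering (leidenalg 0.10.2, resolution 1, 3000 variable genes, 30 components). Shares were compared with exact sign-flip permutation tests in which the replicate pairs the groups. Each library holds all 6 groups, and Ctrl and Treg_aIFNg samples of the same replicate deviated together (correlations of 0.553, 0.341 and 0.368). The label sources do not say that the replicates were separate mice, so p-values cover these 3 experiments only. With the replicate as a block, edgeR p-values measure how far group differences vary between the experiments, with the spread estimated over all 6 groups. Alternatives were DESeq2 1.42.0, other scaling and filters, no replicate block, a fit of the 2 groups, sums per library, at most 60000 UMIs per cell and leaving out each replicate. Scripts were tested on simulated data. For Treg_aIFNg minus Ctrl over all cells, edgeR called 28.6% of simulated 1.25-fold changes and 53.1% of 1.5-fold changes. It called 71.4% of 2-fold and 96% of 4-fold changes, so smaller differences can be missed. The simulated counts took their spread from the trend over genes, with no shift between replicates and no change in the other groups. Genes with a wider spread over the 6 groups can therefore be missed more often than these shares show. An example was Cd74, with an SE against Ctrl of 0.91 in the fit of 6 groups and 0.14 in the fit on the 2 groups alone. Limits for a count of 0 use 3 counts, and intervals from counts cover counting error only.

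The genes named were the 10 with the largest change in each direction among those called, or, where fewer than 5 passed, the 5 with the smallest p in each direction, every gene of the lists at an adjusted p under 0.05, and a set always shown (among them Irf1, Socs1, Socs3, Gbp2, Igtp, Cd74, H2-Ab1, Psmb8, B2m, Reg3b, Reg3g, Ifngr1, Lgr5, Olfm4, Myc and Mki67). 1 gene of that set is not reported here. The others (Cck, the rare-cell genes and the further pathway members) were chosen after their values were seen. The members, the gene lists and the tests were chosen with earlier results of these data known. Promoter and hashtag sequences come from RefSeq (GRCm38.p6) and the deposited feature tables.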

Additional observations from a re-analysis of the deposited data

Results flagged for a closer look

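The effect of Treg cells on the epithelium differed with and without the antibody to IFNγ for 29 genes, by the edgeR test of the difference between Treg_aIFNg and Treg (adjusted p under 0.05). The log2 differences were Irf1 (-2.80), Irf9 (-1.11), Psmb8 (-2.91), Psmb9 (-1.66), Psmb10 (-1.20), Psme1 (-1.04), Psme2 (-0.86), Tapbp (-0.85), Tapbpl (-1.30), Erap1 (-0.53) and Nlrc5 (-4.08) among the regulators and the genes of class I antigen processing. In the class II group they were Cd74 (-4.86), Ciita (-4.81) and Ctss (-0.78), and among other interferon effectors Casp1 (-0.42), Lgals9 (-0.51), Ifitm3 (-0.94) and Epsti1 (-0.40). Outside the interferon lists they were Gsdmd (-0.89), Casp12 (-2.81), Nmi (-0.66), Trim26 (-0.36), Shfl (-1.16), Unc93b1 (-0.88), Pnpla2 (-0.29), Adh6a (-2.75), Ldb3 (-0.46), Tnfaip8l3 (-1.31) and Gm12216 (-2.56). All 29 were lower with the antibody, and the count was 0 without replicate 3.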

How the results depend on the processing

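Against Ctrl, the count of 0 called genes over all cells held under each alternative except the fit of the 2 groups alone, which called 9. Against Treg, the 29 calls became 86 with DESeq2 and 7 with no replicate block, and ranged from 0 to 67 when 1 replicate was left out (0 without replicate 3, 67 without replicate 1). The replicate block changed no call against Ctrl or against both antibodies. Within classes, testing every gene with a count raised the calls to 18 in ISC-like cells, 17 in TA-like cells, 22 in the Sprr2f/Areg cluster, 73 in goblet/Paneth-like cells (7 with DESeq2) and 15 in enterocyte-like cells. With 1 replicate left out the calls ranged from 0 to 2, 0 to 1 and 0 to 3 in the first 3 of these and from 0 to 10 in goblet/Paneth-like cells. The mean share difference then ranged from -2.22 to 3.34 percentage points for ISC-like cells, -0.329 to 0.240 for the Sprr2f/Areg cluster and -0.305 to 0.679 for endocrine-like cells, and that of cells above the control interferon score from -0.218 to 1.11. Among the single genes against Ctrl, 255 of the alternative values kept their sign and side of the threshold and 6 reversed, each with an adjusted p above 0.05 in edgeR: Il10rb was -0.0103 with no replicate block and -0.001 with RLE size factors, and with 1 replicate left out Il10rb ranged from -0.0407 to 0.0604, Socs1 from -0.375 to 0.256 and Lgr5 from -0.0468 to 0.082. Of the values of single genes against Treg, 68 kept the call and 77 lost it. The cause of these changes was not tested. The planned test of progenitor (EP)-like cells was not run, since no cluster could be given that name, and the test of the Sprr2f/Areg cluster was chosen after seeing the data in its place.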

Other observations

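Most UMIs of 2 hormone genes came from a few cells. Cck had 5759 UMIs in Ctrl, 5627 of them in 7 cells, and 21816 in Treg_aIFNg, 21591 of them in 15 cells. In the other groups Cck had 8826 UMIs in Treg, 3438 in Treg_aIL10R, 12750 in Treg_aIFNg_aIL10R and 21357 in IFNg_IL10. Gip, the incretin hormone of K cells, had 6550 UMIs in Ctrl and 5867 in Treg_aIFNg, and 2 and 3 cells held nearly all of them. In replicate 3, Gip had 5 UMIs in Ctrl and 10 in Treg_aIFNg, with no cell at 20 UMIs or more. Tuft cell markers had a median log2 difference of 0.11 from Ctrl and 1.47 from Treg over 13 tested genes, with no gene called in edgeR in either contrast.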
